A study of Mus musculus with 4 samples.

Results

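Lysosomal hydrolases and membrane proteins are described here as 40 genes chosen by function, of which 38 were measured among 19505 genes on the arrays. Ctsd and Glb1 were not analysed here, since no probe set in the table used names them. Each member had 1 probe set. The members were sorted by role into membrane proteins, proton pump subunits, cathepsins, another peptidase, glycosidases, sulfatases, lipid-handling proteins and a transcription factor. RNA came from macrophages grown from femoral marrow of 2 wild-type (WT) mice and 2 mice lacking Hem1 (Hem1 KO), with 1 array per mouse. Both genotypes were cultured for 8 days with 20% L929 conditioned medium, a source of the growth factor CSF1, and 10% fetal calf serum, and neither received a treatment. Hem1, encoded by Nckap1l, is the subunit of the actin-regulating WAVE complex found in blood cells. The age and strain of the mice, the extent of the deletion and whether it acts beyond blood cells are not given in the sources used here.

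Macrophages break down what they engulf, and what autophagy delivers, in the lysosome, an acidic compartment. A proton pump, the V-ATPase, keeps it acidic, soluble hydrolases that work at low pH cut proteins, glycans and lipids, and a coat of glycosylated membrane proteins encloses them. Many of these genes are bound by the transcription factor TFEB and its relatives at promoter sites built around an E-box, the hexamer CACGTG.

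Because this shared promoter element is the best known common feature of lysosomal genes, the promoters of the members were read from RefSeq (GRCm38.p6), as windows from 250 bases before to 50 bases after the start site. Windows were found for 34 of the 40 members by symbol. CACGTG, which reads the same on both strands, lay in the window of 13 of the 34 (38.2%), against 8.09% of 27025 genes. The longer form TCACGTGA, which contains it and also reads the same on both strands, lay in 7 of the 34 (20.6%), against 1.12% of genes. A match describes the letters only and shows no binding. The windows below were chosen to show the element in members of different roles: 3 membrane proteins, a cathepsin, a glycosidase and a pump subunit. They cover the 150 bases before the start site, 5′ to 3′ along the gene, with each CACGTG in capitals.
Lamp1, chr8:13159011-13159160, plus strand: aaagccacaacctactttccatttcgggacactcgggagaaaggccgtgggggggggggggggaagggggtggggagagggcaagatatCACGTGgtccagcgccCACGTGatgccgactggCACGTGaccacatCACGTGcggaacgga
Mcoln1, chr8:3500369-3500518, plus strand: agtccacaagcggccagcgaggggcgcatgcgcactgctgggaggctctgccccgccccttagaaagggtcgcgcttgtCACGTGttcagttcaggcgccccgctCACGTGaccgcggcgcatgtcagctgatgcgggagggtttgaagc
Cln3, chr7:126583237-126583386, minus strand: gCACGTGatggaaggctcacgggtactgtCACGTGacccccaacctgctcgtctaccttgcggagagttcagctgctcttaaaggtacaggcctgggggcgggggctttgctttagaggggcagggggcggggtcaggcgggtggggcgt
Ctsa, chr2:164833623-164833772, plus strand: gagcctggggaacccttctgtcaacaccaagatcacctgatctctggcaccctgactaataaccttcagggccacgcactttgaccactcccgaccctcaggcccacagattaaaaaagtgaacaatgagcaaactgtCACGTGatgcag
Naglu, chr11:101069944-101070093, plus strand: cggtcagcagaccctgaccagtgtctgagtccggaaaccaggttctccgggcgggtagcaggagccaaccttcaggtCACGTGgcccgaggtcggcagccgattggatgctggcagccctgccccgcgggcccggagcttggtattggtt
Atp6v1a, chr16:44139260-44139409, minus strand: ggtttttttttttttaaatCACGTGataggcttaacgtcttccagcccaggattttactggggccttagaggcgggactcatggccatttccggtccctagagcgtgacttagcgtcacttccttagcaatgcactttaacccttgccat

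Lamp1 carries 4 copies of the hexamer within 61 bases of its start site, the most among the 34 members with a window. Mcoln1 and Cln3 carry 2 copies each in these windows. The Cln3 copies lie 149 and 121 bases before the start, and no printed copy lies farther upstream than that at 149. Ctsa has its copy 12 bases before the start and another just after it.

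The lysosomal genes as a group read slightly lower in the Hem1 KO macrophages, and no single member passed the test. Of the 38 measured members, 35 had a Hem1 KO mean below the WT mean, and the median log2 difference (Hem1 KO minus WT) was -0.31. Over all genes 48.2% lay below 0 and the median was 0.01. In 27 of the 38, both Hem1 KO arrays read lower than both WT arrays, against 13.3% of all genes, and in 1, Gaa, both read higher, against 12.5%. Genes within the members' range of mean levels leaned the same way to a lesser degree. They were not matched to the members inside that wide range, where the members' median WT level was 10.95. How far brightness enters the contrast was not tested. Among the 6232 genes whose 4-array mean fell within the members' range of 7.95 to 13.0, 67.5% lay below 0, 28.8% were lower without overlap and the median was -0.11.

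**Figure D1:**
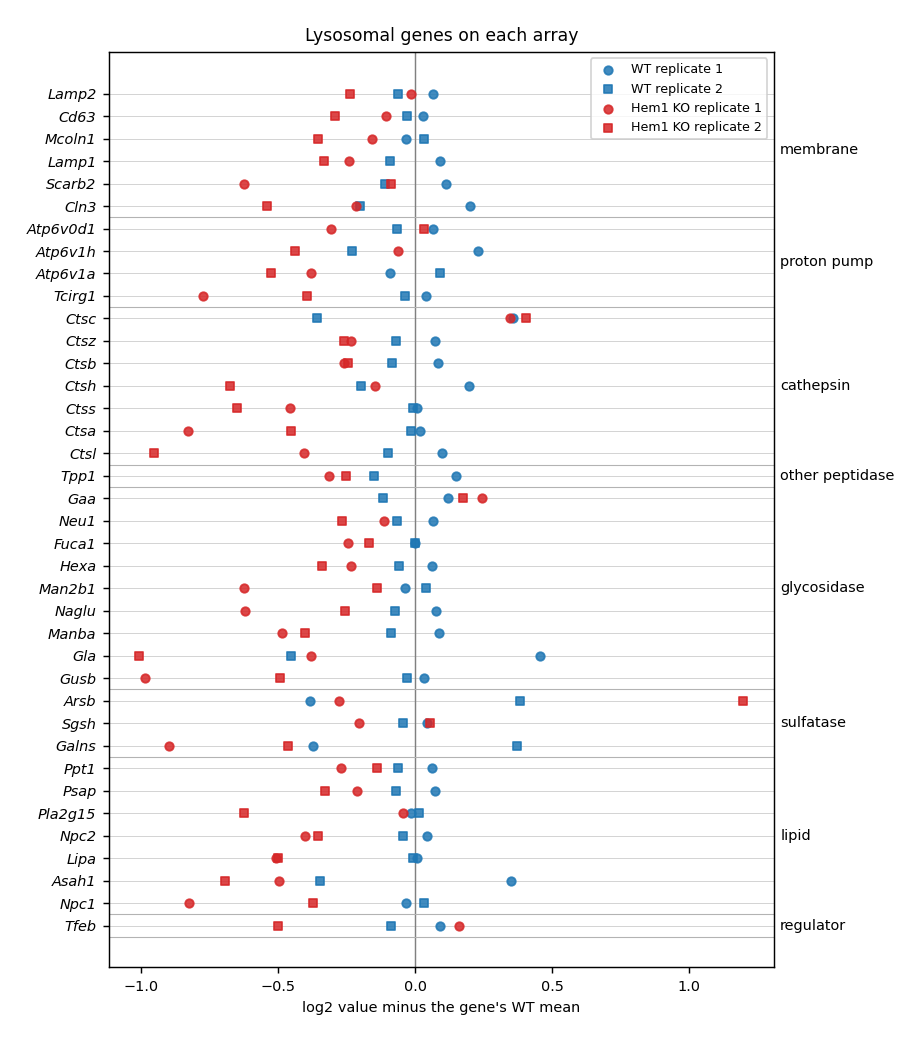
Each point is the log2 value of 1 gene on 1 array, minus the mean of that gene's WT arrays; blue is WT, red is Hem1 KO, circles are replicate 1 and squares replicate 2. In 27 of the 38 genes both red points lie left of both blue points, and Ctsc, Gaa and Arsb are the 3 with a higher Hem1 KO mean.

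Differences were tested with limma over all 19505 genes, with Benjamini-Hochberg adjustment and a threshold of 0.05. It called 0 of the 38 members in either direction, against 0.133% of all genes called lower and 1.48% called higher. At an unadjusted p under 0.05 it found 1 member lower and 0 higher, against 1.57% and 3.63% of all genes. With 2 arrays per genotype the differences were imprecise: the members' standard errors (SE) ran from 0.31 to 0.45, and the 95% interval of 37 members included 0. A member that missed the threshold is therefore not shown to be equal between the genotypes.

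The count of calls depended on how the spread was estimated. The main fit draws all genes toward 1 prior spread. The members' SEs thus ran only from 0.31 to 0.45, although the gap between arrays of a genotype ran from 0.00 for Fuca1 to 1.47 for Arsb. With a prior that follows intensity, which assigns bright genes a smaller spread, limma called 5 members lower and 0 higher, against 1.05% and 2.10% of all genes. These were the glucuronidase Gusb (adjusted p = 0.000539), the proteases Ctss (0.0172), Ctsl (0.0181) and Ctsa (0.0317), and the lipase Lipa (0.0379), all with unchanged differences. This fit took each SE from intensity alone and gave a gene's own gap between arrays no weight. Its p-values therefore do not measure how a given gene varied between mice. Arsb, with the widest gap, had an SE of 0.26 in it, and Neu1 had 0.30. In 21 members the difference lay below 0 and exceeded the gap between arrays within either genotype, against 8.75% of all genes.

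**Figure D2:**
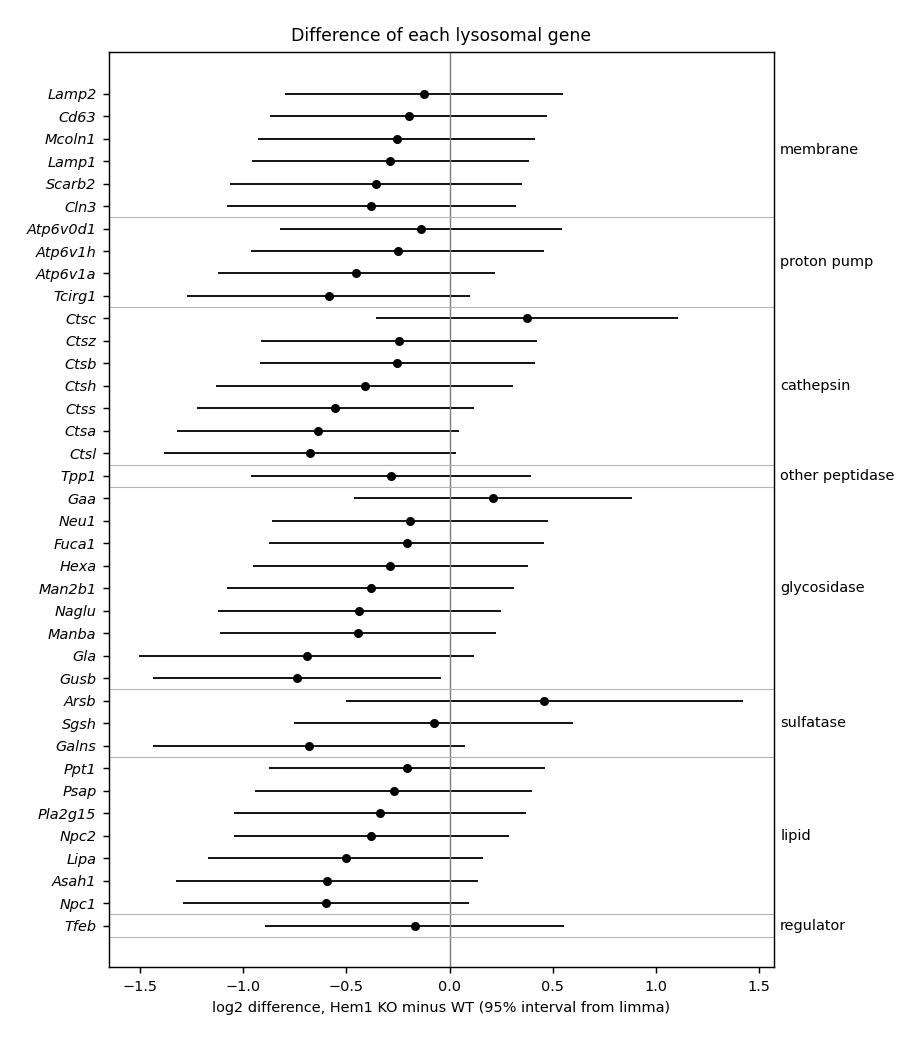
Points are the log2 difference (Hem1 KO minus WT) of each gene by role and bars are limma's 95% interval, n = 2 arrays per genotype. Gusb, at -0.74 with an interval from -1.44 to -0.04, is the 1 gene whose interval leaves out 0.

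Macrophage markers were detected on every array. All 13 measured macrophage markers lay above background on all 4 arrays, the surface receptor gene Adgre1 reading 11.71 and 11.58 in WT against 11.31 and 11.09 in Hem1 KO. Clearing background does not identify the cells, since 6 of 9 measured stromal markers did so on all 4 arrays too. Of these, Acta2 read 10.72 and 10.20 in WT against 12.32 and 12.11 in Hem1 KO. The targeted gene Nckap1l read 11.37 and 11.11 in WT against 10.04 and 9.62 in Hem1 KO (-1.41, SE 0.32, limma adjusted p = 0.0467). The call was lost on leaving out WT replicate 1 (difference -1.28) or 2 (-1.54), or Hem1 KO replicate 2 (-1.20). In each of those fits every gene had the same SE. Between 12588 and 13074 genes per array lay above background, the level under which 95% of chemosensory receptor genes fell, and so did all 38 members. The array medians over genes ran from 6.42 to 6.95, and Hem1 KO replicate 1 had an SD over genes of 2.00 against 2.15 on the other arrays.

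Markers of other cells moved beside the lysosomal genes. The 9 measured stromal markers all read higher in Hem1 KO, 6 of them called, with Pdgfrb at 2.36, Cxcl12 at 2.06 and Col1a1 at 1.97. Their summed level, as log2, was 11.10 to 11.56 in WT and 13.02 to 13.41 in Hem1 KO, with Lum and Thy1 below background on every array. The macrophage markers had a median difference of -0.30, with 12 of 13 below 0 and 0 called, close to the -0.31 of the lysosomal genes, and summed to 15.17 to 15.48 in WT and 14.96 to 15.06 in Hem1 KO. The part of either list in the lysosomal result was not tested, and in such bulk samples fewer cells of a type and less RNA per cell cannot be told apart. Of the other markers, 1 of 8 basophil and mast cell genes was called higher (Mcpt8), 3 of 10 osteoclast genes lower (Dcstamp, Atp6v0d2 and Mmp9), and 1 of 6 endothelial genes each way (Cdh5 higher, Vwf lower). Limma called 0 of 9 neutrophil, 8 dendritic, 7 lymphoid and 3 erythroid markers, and 0 of them passed an unadjusted p of 0.05.

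All 6 membrane proteins lay below 0, with a median of -0.27 (-0.14 after quantile normalization), and 4 were lower without overlap. Lamp1 and Lamp2 are the abundant glycoproteins that line the inner face of the membrane. Lamp1 read 12.09 and 11.90 in WT against 11.75 and 11.66 in Hem1 KO (-0.29, SE 0.31, 95% interval -0.96 to 0.38). Lamp2 read 12.59 and 12.46 in WT against 12.51 and 12.29 in Hem1 KO (-0.13), values that overlapped.

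Cln3, whose loss causes a juvenile neuronal storage disease, read 11.02 and 10.62 in WT against 10.60 and 10.28 in Hem1 KO (-0.38, SE 0.32, unadjusted p = 0.263). Its difference was -0.18 without WT replicate 1 and -0.58 on leaving out WT replicate 2. The genotypes did not overlap, but the upper Hem1 KO array lay just under the lower WT array. Scarb2, which carries glucocerebrosidase to the lysosome, read 9.85 and 9.63 in WT against 9.11 and 9.65 in Hem1 KO (-0.36), so that 1 Hem1 KO array lay within the WT range. The tetraspanin Cd63 (-0.20) and the calcium channel Mcoln1 (-0.26) were lower without overlap. Lamp2 turned to 0.03 after quantile normalization.

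The pump subunits that belong to the group are the a3 subunit Tcirg1, the catalytic Atp6v1a, the regulatory Atp6v1h and Atp6v0d1, the common form of the d subunit. All 4 lay below 0, with a median of -0.35, and Tcirg1 and Atp6v1a did not overlap. Tcirg1 read 10.13 and 10.05 in WT against 9.32 and 9.70 in Hem1 KO (-0.59, SE 0.32, unadjusted p = 0.0875). Atp6v1a, whose promoter is printed above, read 10.27 and 10.45 in WT against 9.98 and 9.83 in Hem1 KO (-0.45, SE 0.31). Atp6v1h read 9.10 and 8.64 in WT against 8.81 and 8.44 in Hem1 KO (-0.25). Arrays within each genotype differed by more than the genotypes did.

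Atp6v0d2, the d subunit form of osteoclasts and some macrophages, was the only one of 20 measured other pump genes to pass. It read 10.54 and 11.43 in WT against 9.33 and 7.79 in Hem1 KO, a 5.38-fold lower level (-2.43, SE 0.46, limma adjusted p = 0.0143). The common form Atp6v0d1 read 9.18 and 9.04 in WT against 8.80 and 9.14 in Hem1 KO (-0.14, SE 0.32). The difference between the 2 forms was not tested. Leaving out Hem1 KO replicate 2 gave -1.66 for Atp6v0d2, and leaving out Hem1 KO replicate 1 gave -3.20. The call of Atp6v0d2 ended after quantile normalization (adjusted p = 0.133) and when dim genes were left out (0.117).

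The 20 other pump genes had a median of -0.28 (-0.17 without WT replicate 1, -0.42 on leaving out Hem1 KO replicate 1), and 17 lay below 0. At an unadjusted p under 0.05, 4 were lower and 0 higher. Beside Atp6v0d2 these were Atp6v1b2 (-1.03), Atp6v0a1 (-1.02) and Atp6v1c1 (-0.86), named after their values were seen. Atp6v1b2, the B subunit of most tissues, read 11.42 and 11.85 in WT against 10.43 and 10.77 in Hem1 KO (SE 0.33, adjusted p = 0.274). Atp6v0a1, the a1 subunit, read 11.10 and 10.98 in WT against 9.86 and 10.18 in Hem1 KO (SE 0.32, adjusted p = 0.252). With the prior that follows intensity these 3 passed as well.

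**Figure D3:**
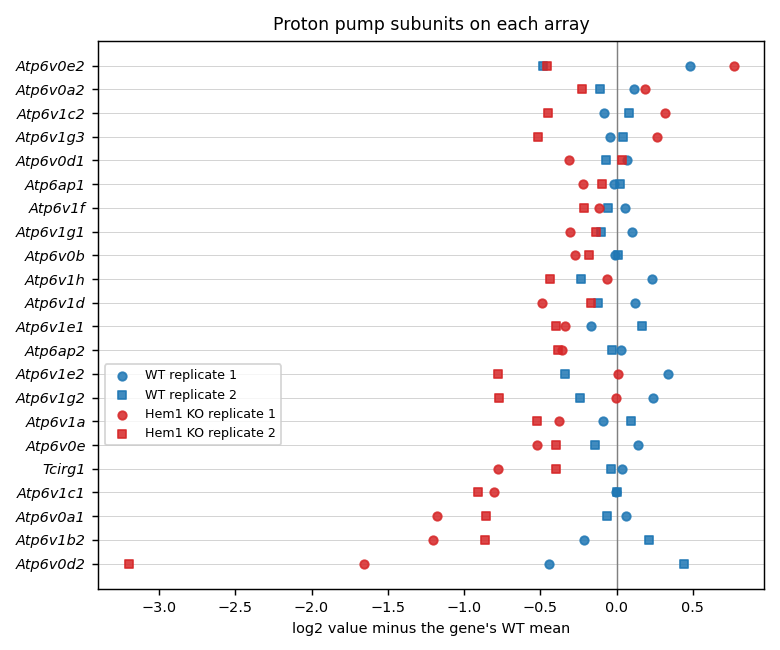
Each point is the log2 value of 1 proton pump gene on 1 array, minus the mean of its WT arrays, for the 22 genes above background on at least 1 array; blue is WT, red is Hem1 KO. Atp6v0d2 lies far left on both Hem1 KO arrays, at a mean of -2.43, and Atp6v0a1, Atp6v1b2 and Atp6v1c1 lie between it and the rest.

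The cathepsins had a median of -0.41, with 6 of 7 below 0 and 5 lower without overlap. Whether the classes differ from each other was not tested. Ctsl, a cysteine endopeptidase, read 11.16 and 10.97 in WT against 10.66 and 10.11 in Hem1 KO (-0.68, SE 0.33, 95% interval -1.39 to 0.03). Ctsa, a carboxypeptidase that also shields the sialidase Neu1 from breakdown, read 11.08 and 11.04 in WT against 10.23 and 10.61 in Hem1 KO (-0.64, SE 0.32, unadjusted p = 0.0643). The WT arrays of Ctsa nearly coincided, and both Hem1 KO arrays lay below them.

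Ctss, which trims the invariant chain of class II molecules, read 11.94 and 11.92 in WT against 11.47 and 11.28 in Hem1 KO (-0.55, SE 0.31, 95% interval -1.22 to 0.12). Ctsb, a broad cysteine protease, read 13.21 and 13.04 in WT against 12.86 and 12.88 in Hem1 KO (-0.25, SE 0.31). The carboxypeptidase Ctsz (-0.25) was also lower without overlap, and the aminopeptidase Ctsh (-0.41) was lower with overlap. Ctsc, which activates granule serine proteases, went the other way, at 11.20 and 10.49 in WT against 11.19 and 11.25 in Hem1 KO (0.38, SE 0.34). Its difference rested on WT replicate 2 and was 0.02 without it. The class median was -0.21 without WT replicate 1, and -0.26 on leaving out Hem1 KO replicate 2, so that it then lay nearer 0 than those of the glycosidases, pump subunits and lipid-handling proteins.

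Tpp1, a tripeptidyl peptidase outside the cathepsins, read 11.62 and 11.32 in WT against 11.15 and 11.22 in Hem1 KO (-0.28, SE 0.31).

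Of the glycosidases, which remove sugars from glycoproteins, glycolipids and matrix chains, 8 of 9 lay below 0, with a median of -0.38. Gusb, the glucuronidase, had the lowest difference and the smallest p of all members. It read 11.81 and 11.75 in WT against 10.79 and 11.28 in Hem1 KO, a 1.67-fold lower level (-0.74, SE 0.32, unadjusted p = 0.0391, limma adjusted p = 0.834). Both Hem1 KO arrays lay below both WT arrays, and the difference exceeded the gap within Hem1 KO, 0.49, and within WT, 0.06. The galactosidase Gla read 9.72 and 8.81 in WT against 8.88 and 8.26 in Hem1 KO (-0.69, SE 0.38), with overlap. Leaving out WT replicate 1 gave -0.24, and leaving out WT replicate 2 gave -1.15.

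Manba, a beta-mannosidase, read 8.40 and 8.22 in WT against 7.82 and 7.91 in Hem1 KO (-0.44, SE 0.31). Fuca1, the fucosidase, had the closest WT arrays, at 11.83 on both, against 11.58 and 11.66 in Hem1 KO (-0.21, SE 0.31). The mannosidase Man2b1 (-0.38), the heparan sulfate enzyme Naglu (-0.44), the hexosaminidase subunit Hexa (-0.29) and the sialidase Neu1 (-0.19) were lower without overlap too. Gaa, which digests glycogen, was the exception, at 11.29 and 11.05 in WT against 11.41 and 11.35 in Hem1 KO (0.21, SE 0.31). It was the only member with both Hem1 KO arrays above WT, by less than the gap between its WT arrays. The class median was -0.24 without WT replicate 1 and after quantile normalization.

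The 3 sulfatases, which strip sulfate from matrix glycans, had differences of both signs, with a median of -0.08 (0.05 without Hem1 KO replicate 1). Galns read 9.76 and 10.50 in WT against 9.23 and 9.67 in Hem1 KO (-0.68, SE 0.35, unadjusted p = 0.0743). Its arrays did not overlap, and its difference was -0.31 without WT replicate 2. Sgsh read 9.66 and 9.57 in WT against 9.41 and 9.67 in Hem1 KO (-0.08, SE 0.31), with full overlap. Arsb was the most variable member, at 8.82 and 9.59 in WT against 8.93 and 10.40 in Hem1 KO (0.46, SE 0.45). The highest and the third highest of its 4 values were both from Hem1 KO, and its difference was 1.20 without Hem1 KO replicate 1 but -0.28 without the other Hem1 KO array.

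All 7 lipid-handling proteins lay below 0 and all 7 were lower without overlap, with a median of -0.38. Lipa, the acid lipase that frees cholesterol from its esters, read 11.98 and 11.97 in WT against 11.47 and 11.48 in Hem1 KO (-0.50, SE 0.31, 95% interval -1.17 to 0.16). Its arrays within each genotype differed by 0.01, and nearly its whole SE came from the prior. Npc1, the membrane protein that exports this cholesterol, read 8.34 and 8.40 in WT against 7.55 and 8.00 in Hem1 KO (-0.60, SE 0.32). Npc2, which hands cholesterol to it, read 10.83 and 10.74 in WT against 10.38 and 10.43 in Hem1 KO (-0.38, SE 0.31).

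Asah1, the acid ceramidase, read 11.09 and 10.39 in WT against 10.24 and 10.05 in Hem1 KO (-0.60, SE 0.34, unadjusted p = 0.102), and was -0.25 without WT replicate 1. Psap, the precursor of the saposins that help enzymes reach their lipids, read 13.21 and 13.06 in WT against 12.92 and 12.80 in Hem1 KO (-0.27, SE 0.31). The phospholipase Pla2g15 read 12.01 and 12.04 in WT against 11.98 and 11.40 in Hem1 KO (-0.34), so that its difference came from Hem1 KO replicate 2 and was -0.05 without it. The thioesterase Ppt1 (-0.21) completed the class.

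Tfeb, the transcription factor of the group, read 8.12 and 7.94 in WT against 8.19 and 7.53 in Hem1 KO (-0.17, SE 0.34, 95% interval -0.89 to 0.56). The WT values lay between those of the Hem1 KO arrays, and its difference turned to 0.16 without Hem1 KO replicate 2. Measured members with a CACGTG in the promoter window had a median difference of -0.38 (11 genes, 10 below 0), and those with a window but no CACGTG -0.28 (21 genes, 19 below 0). The 2 sets were not tested against each other.

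Further genes of the lysosomal pathway, written as lists by role, were read against the same shares, 48.2% of all genes below 0 and 67.5% of genes in the members' range of means, with a median of -0.11 in that range. Of 31 other hydrolases and their helpers 21 (67.7%) lay below 0, near the share in that range (median -0.17). Lower without overlap were 17 (54.8%), against 28.8% in that range and 13.3% of all genes. Higher without overlap were 3, against 12.5% of all genes. The list was not matched to the range, and some of its genes, such as Acp5, lay below it. Limma called 0, with 5 lower and 0 higher at an unadjusted p under 0.05. The smallest p belonged to Acp5, the tartrate-resistant phosphatase (-1.20, SE 0.35, adjusted p = 0.188), and to the protease Ctso (-0.95, SE 0.34). The difference of Acp5 was -1.61 without Hem1 KO replicate 1 and -0.79 without Hem1 KO replicate 2. That of Ctso was -0.62 without Hem1 KO replicate 1 and -1.29 without Hem1 KO replicate 2. Of 34 other membrane proteins and transporters 29 lay below 0 (median -0.31, but -0.16 without WT replicate 1 and -0.19 on leaving out Hem1 KO replicate 2), with 0 called and 2 lower and 1 higher at an unadjusted p under 0.05. Mfsd12, a cysteine transporter, read 10.96 and 11.42 in WT against 9.97 and 10.51 in Hem1 KO (-0.95, SE 0.34). Laptm4b, a small membrane protein, read higher, at 9.15 and 9.58 in WT against 10.46 and 9.88 in Hem1 KO (0.80, SE 0.34). With the prior that follows intensity limma called Mfsd12 lower (adjusted p = 8.01e-05) and Laptm4b higher (0.0277).

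Of 21 sorting receptors and adaptors 20 lay below 0 (median -0.22, but -0.07 without WT replicate 1 and -0.09 after quantile normalization), with 0 called and 1 lower at an unadjusted p under 0.05. This was Gnptab (-0.69, SE 0.31), a subunit of the enzyme that starts the mannose 6-phosphate tag on hydrolases, followed by the adaptor subunit Ap3s1 (-0.52). Gnptab passed with the prior that follows intensity (limma adjusted p = 0.0333). Of 19 fusion and tethering genes 17 lay below 0 (median -0.22, but -0.11 without WT replicate 1), with 0 called by limma and 0 past an unadjusted p of 0.05, Vps39 (-0.55) and Rab7b (-0.59) having the smallest p. The relatives of Tfeb and the mTORC1 genes that control them gave 21 of 25 below 0 (median -0.19, but -0.07 without WT replicate 1 and -0.34 on leaving out WT replicate 2), with 0 called and 0 at an unadjusted p under 0.05. Their smallest p belonged to the GTPase Rragd (-0.63) and to Mitf (-0.55), a transcription factor of the same family as Tfeb.

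The list of cathepsin inhibitors and related serpins held calls in both directions. Of 12 measured, 1 was called lower and 1 higher, with a median of -0.20 that was -0.01 without WT replicate 1. Serpinb6b, a serpin of the cell interior, read 7.60 and 7.20 in WT against 5.35 and 5.61 in Hem1 KO (-1.92, SE 0.32, limma adjusted p = 0.00607), and lay above background on 1 of the 2 Hem1 KO arrays. Serpinh1 read 7.09 and 6.60 in WT against 9.17 and 8.69 in Hem1 KO (2.08, SE 0.34, adjusted p = 0.00474). Serpinh1 is a chaperone of collagen rather than a protease inhibitor, and the stromal markers, which include collagens, read higher beside it. The cystatins Cst3 (-0.09) and Cstb (-0.40), inhibitors of cysteine cathepsins, were not called.

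**Figure D4:**
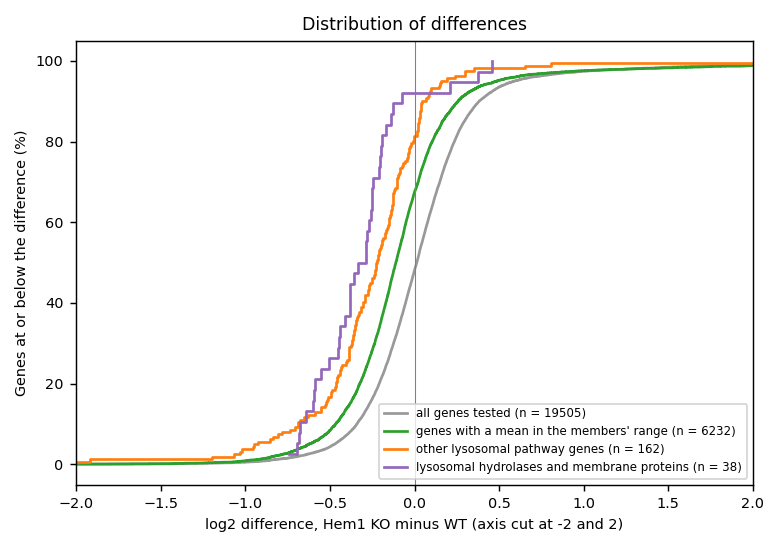
Lines give the percentage of genes (vertical) at or below each log2 difference (horizontal, shown from -2 to 2) for the 38 lysosomal genes, 162 other pathway genes, 6232 genes in the same range of mean values and all 19505 genes. The medians are -0.31, -0.22, -0.11 and 0.01, and the line of the lysosomal genes reaches 35 of 38 at 0.

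The size of the group's shift depended on the arrays and on scaling, and its direction did not in the settings tried. With each array left out in turn the members' median ran from -0.35 (without WT replicate 2) to -0.22 (without WT replicate 1), with 33 to 35 members below 0. The median of all genes moved with the array left out, from -0.18 to 0.21, so that the distance of the members from it was -0.17 without Hem1 KO replicate 1 and -0.48 without Hem1 KO replicate 2, against -0.32 on all arrays. After quantile normalization the members' median was -0.22 beside -0.03 for all genes, and 33 members lay below 0. Over the 11 settings 31 members lay below 0 in each, and 5 changed sign, namely Lamp2, Sgsh, Arsb, Atp6v0d1 and Tfeb. The replicate block, the prior, the filter and the probe set rule cannot change a member's difference, so they add nothing to this count. Only leaving out an array or changing the scaling could alter a sign.

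**Figure D5:**
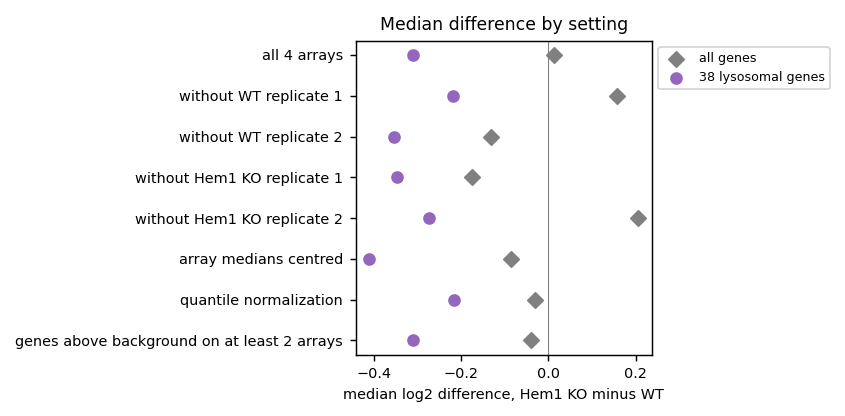
Purple points are the median log2 difference of the 38 lysosomal genes and grey diamonds that of all genes tested, for all 4 arrays and for each setting that moves a median. The purple points lie between -0.41 and -0.22, left of the grey diamond in every setting plotted, with the smallest distance, -0.17, without Hem1 KO replicate 1.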

How the data were processed

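The deposited table holds log2 values of 4 arrays, 1 per mouse, which the authors made with RMA per the submitters' processing notes; version, settings and genome build are not given in the sources used here. Values were used as deposited. The platform annotation gives 1 gene for 19572 of the 29129 features, several for 0 and no name for 9557, which were left out. The brightest probe set of each gene was kept (55 genes had several), leaving 19505 genes. They were tested with limma 3.58.1 under R 4.3.3 (functions lmFit and eBayes, 11.2 prior degrees of freedom, genotype as the only term, two-sided, Benjamini-Hochberg over all genes). The fit was tested on simulated arrays, where it missed most genes given a log2 difference of 1, more than any member showed. Background is the 95th percentile of 1450 chemosensory receptor genes on each array. The number of arrays limits the precision.

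The members, 7 further pathway lists and 9 marker lists (macrophage, stromal, neutrophil, basophil and mast, dendritic, osteoclast, lymphoid, erythroid, endothelial) were chosen with earlier results of these data known, so they are described by counts and medians. Named are all members, with values on every array for the 3 of smallest p per class and for any against the class's direction, and of each pathway list the called genes, otherwise the 2 of smallest p. Other names and array values were added after the values were seen. The alternatives left out each array, blocked on the replicate number, changed scaling, the filter, the prior or the probe set rule.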

Additional observations from a re-analysis of the deposited data

How the results depend on the processing

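The median difference of the members, -0.31, was -0.22 after quantile normalization and -0.41 with array medians centred, and ran from -0.35 to -0.22 with single arrays left out. Centring shifted the median of all genes from 0.01 to -0.09. The 5 members called lower with a prior that follows intensity, against 0 in the main fit, were the only calls of members under any of the 10 alternatives. Over all genes the count called lower was 26 in the main fit, 205 with that prior, 199 with the replicate block, 70 with centring, 16 after quantile normalization, 8 without dim genes and from 26 to 101 with single arrays left out; the count called higher was 288, and 174 without dim genes, 620 with the block and 185 to 545 with single arrays left out. The replicate numbers are not stated to pair mice. Deviations of same-numbered arrays from their genotype means correlated at 0.24 over all genes and at 0.33 over genes above background. With 1 array per genotype and number, a block on the replicate number cannot change a difference, only its SE. The members' median of -0.31 in that fit is therefore no check. With the block 0 members were called, while Atp6v1b2, Atp6v0a1, Atp6v1c1, Acp5, Ctso and Mfsd12 passed. Within replicate number 1 the members' median was -0.34 and within number 2 -0.27, a comparison added after seeing the data, as was the set of genes in the members' range of means. A fit with 1 array in a genotype assumes that it varies like the other. Within each such fit every gene had the same SE, so that calls there followed the size of the difference alone.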
